A study of Mus musculus with 31 samples.

Results

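Genes of immature neurons and of proliferation were followed in RNA bound to tagged ribosomes of mouse brain cells. The members came from a list of 37 genes, 22 known from immature neurons and progenitors and 15 known from the cell cycle, and were found on the array by the gene symbol of each feature. A feature carrying the symbol alone was present for 34 of them, 20 immature neuron genes and 14 cell cycle genes, among 14769 genes named in this way on the array, and each of the 34 had 1 feature. The features of Tubb3 and Cd24a carry a second symbol and no feature was named for Ccnb1, so these 3 genes were not used.

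Ribosomes were pulled down by translating ribosome affinity purification. In this method a tagged ribosomal protein is made in 1 cell type, and the recovered RNA is meant to be that bound to its ribosomes. Markers of other cell types on these arrays are given below. The tissue was striatum or the whole cortex, the tagged cells expressed the dopamine receptor gene Drd1a (Drd1 on the array) or Drd2, and the mice were 2 years old (old) or 6 weeks old (young). The 31 arrays form the groups old and young striatum Drd1a, old and young striatum Drd2, old and young cortex Drd1a, and old and young cortex Drd2, with 4 arrays each apart from young striatum Drd1a with 3. The labels give no strain, sex or name of the tagging transgene and do not state whether the arrays of a group stand for separate mice or for pools, and the p-values reflect only how far these samples spread. Every value is a log2 value relative to the median of the same gene over the 31 arrays. A value of 0 is that median and not absence, and levels of different genes cannot be compared. The median of an array over all features was between -0.072 and 0.13, with 6 arrays higher than 0.05. Receptor genes matched the labelled cell types: over the 4 age and region combinations the difference of Drd1a minus Drd2 arrays ran from 2.01 to 4.38 for Drd1 and from -4.76 to -3.82 for Drd2. The Drd1 difference was smaller in old than in young mice, at 2.07 against 4.38 in striatum and 2.01 against 3.47 in cortex. The number of arrays limits the precision.

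Newly made neurons pass through a stage in which they migrate and extend processes. They then express microtubule and growth cone proteins such as doublecortin (Dcx), stathmins (Stmn1, Stmn2) and GAP-43 (Gap43), under transcription factors such as Sox4, Sox11 and, in forebrain inhibitory neurons, Dlx1 and Dlx2. Several of these proteins are also made by mature neurons, where they take part in remodelling of axons and dendrites. D-type cyclins (Ccnd1, Ccnd2) start the cell cycle, the MCM helicase (Mcm2 to Mcm7), Pcna and claspin (Clspn) act in DNA replication and its checkpoint, and Cdk1, Top2a, Melk and Mki67 act in or mark cells that divide. Drd1a and Drd2 neurons do not divide in the adult, while new neurons of the adult rodent forebrain arise, among other sites, in the ventricular wall that borders the striatum.

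A small set of the members changed with age, most of them downwards. Pantr1, a long noncoding RNA gene next to the neuronal transcription factor gene Pou3f3, and Ccnd2, the gene of cyclin D2, each fell in 3 of the 4 cell populations. Marcksl1, an actin-binding relative of the growth cone protein MARCKS, Clspn and Nrep, the gene of the neuronal regeneration related protein, each fell in 2. Stmn1 rose in striatum Drd2 cells, and Melk rose in striatum Drd1a cells and fell in striatum Drd2 cells. The other 27 members were called in none of the 4 comparisons. A gene counted as called when it differed by 1.2-fold or more with a limma p under 0.05 after Benjamini-Hochberg adjustment across the 16345 features. By that rule 7 of 34 members, 20.6%, were called at least once, beside 9.71% of all features. The members were chosen with earlier results of these data known, so these shares do not test whether the list is enriched. With the groups of each comparison fitted alone, 5 of the 15 single calls were kept, those of Pantr1 and Ccnd2 in both striatal populations and of Clspn in striatum Drd2 cells.

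**Figure D1:**
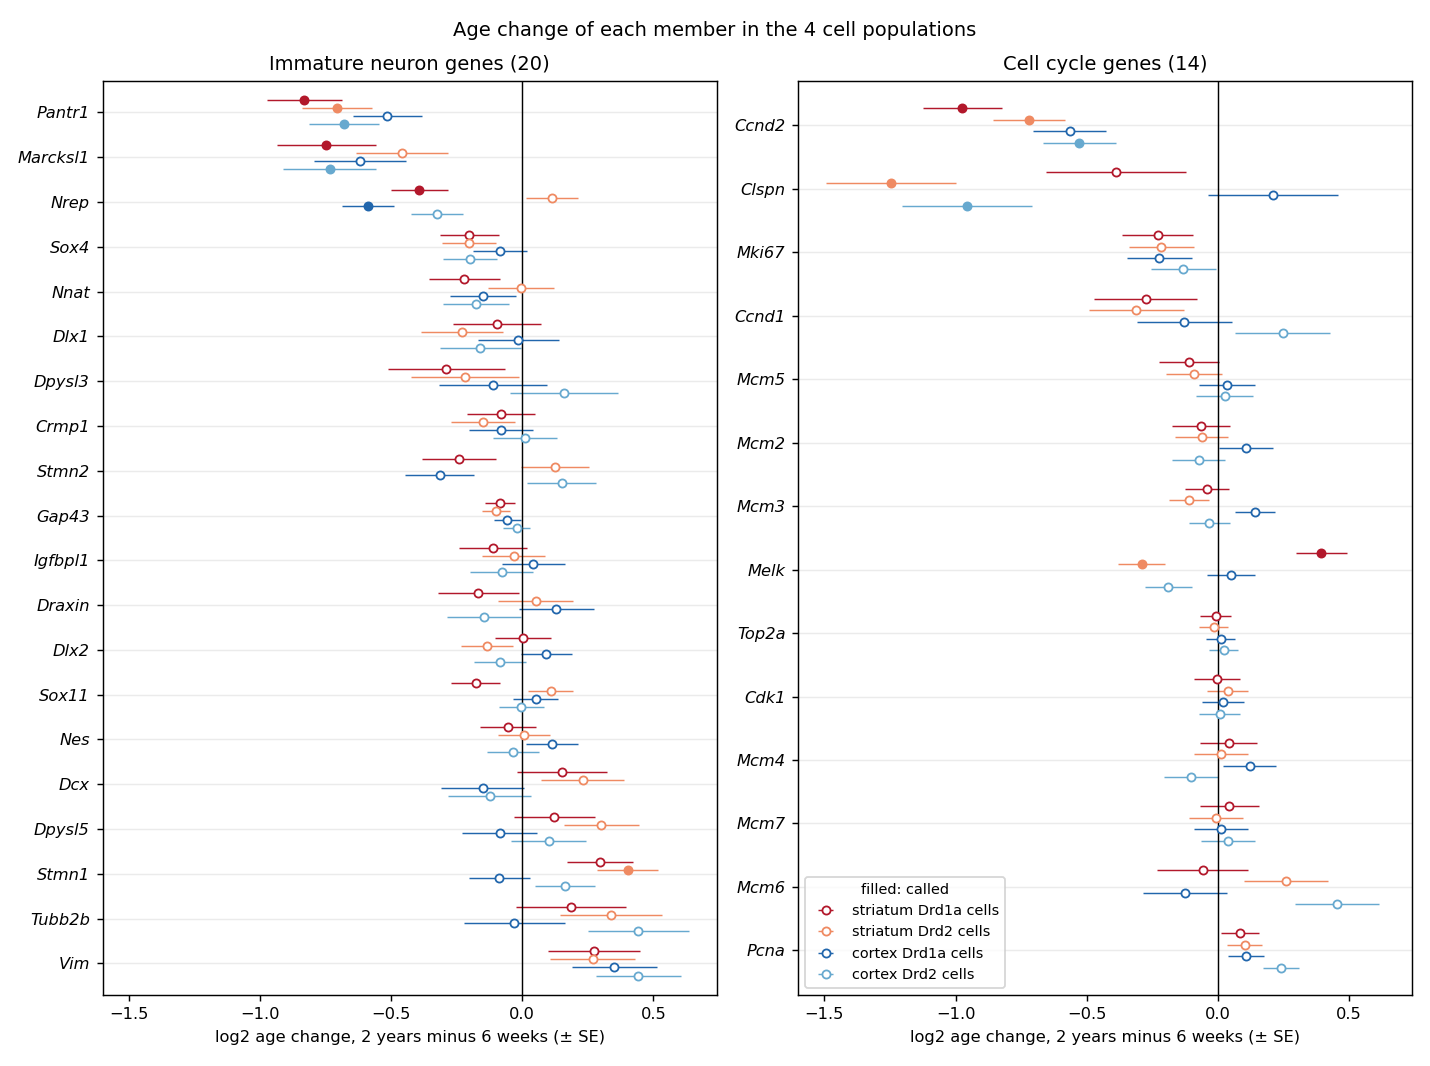
Age change of each of the 34 members on the log2 scale, old minus young, with its standard error, for striatum Drd1a, striatum Drd2, cortex Drd1a and cortex Drd2 cells; filled points passed both thresholds. Pantr1, Marcksl1 and Ccnd2 lie below 0 in all 4 cell populations. So do Sox4, Gap43, Nnat, Dlx1 and Mki67, which were not called, and 2349 of all 16345 features. Most other members lie near 0.

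In striatum Drd1a cells 3 of 20 immature neuron genes fell and none rose, and 1 of 14 cell cycle genes rose and 1 fell, beside 3.43% of all features called (1.58% higher and 1.85% lower). In striatum Drd2 cells 1 immature neuron gene rose and 1 fell, and 3 cell cycle genes fell, beside 5.7% of all features called (2.72% higher and 2.98% lower). In cortex Drd1a cells 1 immature neuron gene fell and no cell cycle gene was called, 1 of 14 having an unadjusted p under 0.05 (9.23% of all features), beside 0.453% of all features called (0.214% higher and 0.239% lower). In cortex Drd2 cells 2 immature neuron genes and 2 cell cycle genes fell, beside 3.63% of all features called (1.85% higher and 1.78% lower). Leaving out each array in turn gave 1 to 2 immature neuron calls in striatum Drd1a, 1 to 3 in striatum Drd2 and 1 to 4 in cortex Drd2 cells, and 1 to 2, 2 to 3 and 0 to 3 cell cycle calls in the same order. In striatum Drd1a cells 1 immature neuron gene was called without young replicate 1 or old replicate 4, and 1 cell cycle gene without old replicate 3 or 4 or young replicate 1 or 3. For striatum Drd2 cells 1 immature neuron gene was called without old replicate 1 or 3 or young replicate 2, 3 or 4. In cortex Drd1a cells 1 cell cycle gene was called without old replicate 4. For cortex Drd2 cells 1 immature neuron gene was called without old or young replicate 2, and 4 without old replicate 3. Of the cell cycle genes 0 were called there without old replicate 1 or young replicate 3 or 4, and 1 without old replicate 2 or young replicate 1. The median age change of the immature neuron genes was -0.10, 0.0019, -0.083 and -0.056 in striatum Drd1a, striatum Drd2, cortex Drd1a and cortex Drd2 cells. That of the cell cycle genes was -0.049, -0.077, 0.027 and -0.013. Over all features the medians in the same order were -0.047, -0.0084, 0.039 and -0.023.

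Pantr1, a noncoding RNA whose values are not a measure of translation, was the immature neuron gene called most often with age. It lay at 0.016, -0.28, -0.12 and 0 in old striatum Drd1a arrays, against 0.77, 0.78 and 0.66 in young ones. It lay at -0.48, -0.26, 0.014 and -0.088 in old striatum Drd2 arrays, against 0.49, 0.62, 0.62 and 0.29 in young ones. In both striatal cell types every old array was below every young one. Cortical values were -0.65, -0.34, -0.29 and -0.43 in old cortex Drd1a arrays, against 0.081, -0.068, 0.22 and 0.10 in young ones, and -1.04, -0.68, -0.27 and -0.28 in old cortex Drd2 arrays, against 0.031, -0.053, 0.34 and 0.14 in young ones, again without overlap. The age change was -0.83 ± 0.14 (SE, adjusted p = 0.00134) in striatum Drd1a cells, -0.71 ± 0.13 (SE, adjusted p = 0.00110) in striatum Drd2 cells and -0.68 ± 0.13 (SE, adjusted p = 0.00385) in cortex Drd2 cells, or 1.78-fold, 1.63-fold and 1.60-fold lower. In cortex Drd1a cells the value was -0.51 ± 0.13 (SE, adjusted p = 0.0831), which did not pass the test. In these ribosome samples fewer contributing cells and less RNA per cell cannot be told apart, here and for every change below. Pou3f3, looked at because it is the neighbouring gene, had age changes of -0.098 ± 0.11 (SE, adjusted p = 0.757), -0.098 ± 0.10 (SE, adjusted p = 0.825), 0.084 ± 0.10 (SE, adjusted p = 0.833) and 0.035 ± 0.10 (SE, adjusted p = 0.956) in striatum Drd1a, striatum Drd2, cortex Drd1a and cortex Drd2 cells, none of them called.

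Marcksl1 fell with age in striatum Drd1a and cortex Drd2 cells. Its values were -0.80, -0.38, -1.01 and -1.22 in old striatum Drd1a arrays, against -0.18, -0.14 and 0 in young ones. They were 0.014, -0.52, 0.14 and 0.016 in old cortex Drd2 arrays, against 0.75, 0.78, 0.50 and 0.55 in young ones. All old arrays were below all young ones in both. The change was -0.75 ± 0.19 (SE, adjusted p = 0.0233), 1.68-fold lower, in striatum Drd1a cells and -0.73 ± 0.18 (SE, adjusted p = 0.0159), 1.66-fold lower, in cortex Drd2 cells. In striatum Drd2 cells the values were -0.41, -0.40, -1.18 and -0.10 in old striatum Drd2 arrays, against -0.067, -0.20, -0.049 and 0.057 in young ones, with overlap. The change of -0.46 ± 0.18 (SE, adjusted p = 0.132) was not called. In cortex Drd1a cells they were 0.25, 0.17, 0.12 and -0.061 in old cortex Drd1a arrays, against 0.54, 0.92, 0.97 and 0.53 in young ones, without overlap. The change of -0.62 ± 0.18 (SE, adjusted p = 0.119) was not called either. The striatum Drd1a call was lost when any of old replicates 3 and 4 or young replicates 1 and 3 was left out, with changes between -0.79 and -0.62. The cortex Drd2 call was lost without old replicate 2, at -0.59, and without young replicate 2, at -0.69.

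Nrep fell in both Drd1a populations. In cortex it lay at -0.49, -0.38, -0.013 and -0.50 in old cortex Drd1a arrays, against 0.21, 0.25, 0.26 and 0.27 in young ones, with no overlap. The change was -0.59 ± 0.10 (SE, adjusted p = 0.00410), 1.503-fold lower. In striatum it lay at -0.15, -0.14, 0.067 and -0.095 in old striatum Drd1a arrays, against 0.34, 0.52 and 0.083 in young ones, and the highest old and the lowest young array differed by little. The change there was -0.39 ± 0.11 (SE, adjusted p = 0.0370), 1.31-fold lower. The striatal call was lost without any of 5 of the 7 arrays (old replicates 1, 2 and 4 and young replicates 1 and 2), with changes between -0.39 and -0.29. It was also lost with each array centred on its median, at -0.35 (adjusted p = 0.156), and under quantile normalization, at -0.37 (adjusted p = 0.139). In striatum Drd2 cells the values overlapped, at 0.18, 0.071, 0.11 and -0.10 in old striatum Drd2 arrays, against 0.090, -0.031, -0.055 and -0.20 in young ones, with a change of 0.11 ± 0.10 (SE, adjusted p = 0.741). In cortex Drd2 cells they did not overlap, at -0.42, -0.30, -0.011 and -0.36 in old cortex Drd2 arrays, against 0.13, 0.055, 0.028 and 0 in young ones, and the change of -0.33 ± 0.10 (SE, adjusted p = 0.0596) was above the threshold of adjusted p.

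Stmn1, which encodes stathmin 1, a protein that takes microtubules apart, was the immature neuron gene that rose. It lay at -0.55, -0.91, -0.66 and -0.80 in old striatum Drd2 arrays, against -0.96, -1.11, -1.12 and -1.35 in young ones, without overlap. The change was 0.40 ± 0.12 (SE, adjusted p = 0.0329), 1.32-fold higher. In striatum Drd1a cells it lay at -0.92, -0.76, -0.56 and -0.998 in old striatum Drd1a arrays, against -0.95, -1.41 and -0.96 in young ones, with overlap and a change of 0.30 ± 0.13 (SE, adjusted p = 0.222). In cortex the changes were -0.088 ± 0.12 (SE, adjusted p = 0.839) in Drd1a and 0.16 ± 0.12 (SE, adjusted p = 0.587) in Drd2 cells. The striatum Drd2 call was lost under quantile normalization, where the change was 0.145 (adjusted p = 0.411), and on leaving out any of old replicates 1 and 3 and young replicates 2, 3 and 4, with changes between 0.33 and 0.41.

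**Figure D2:**
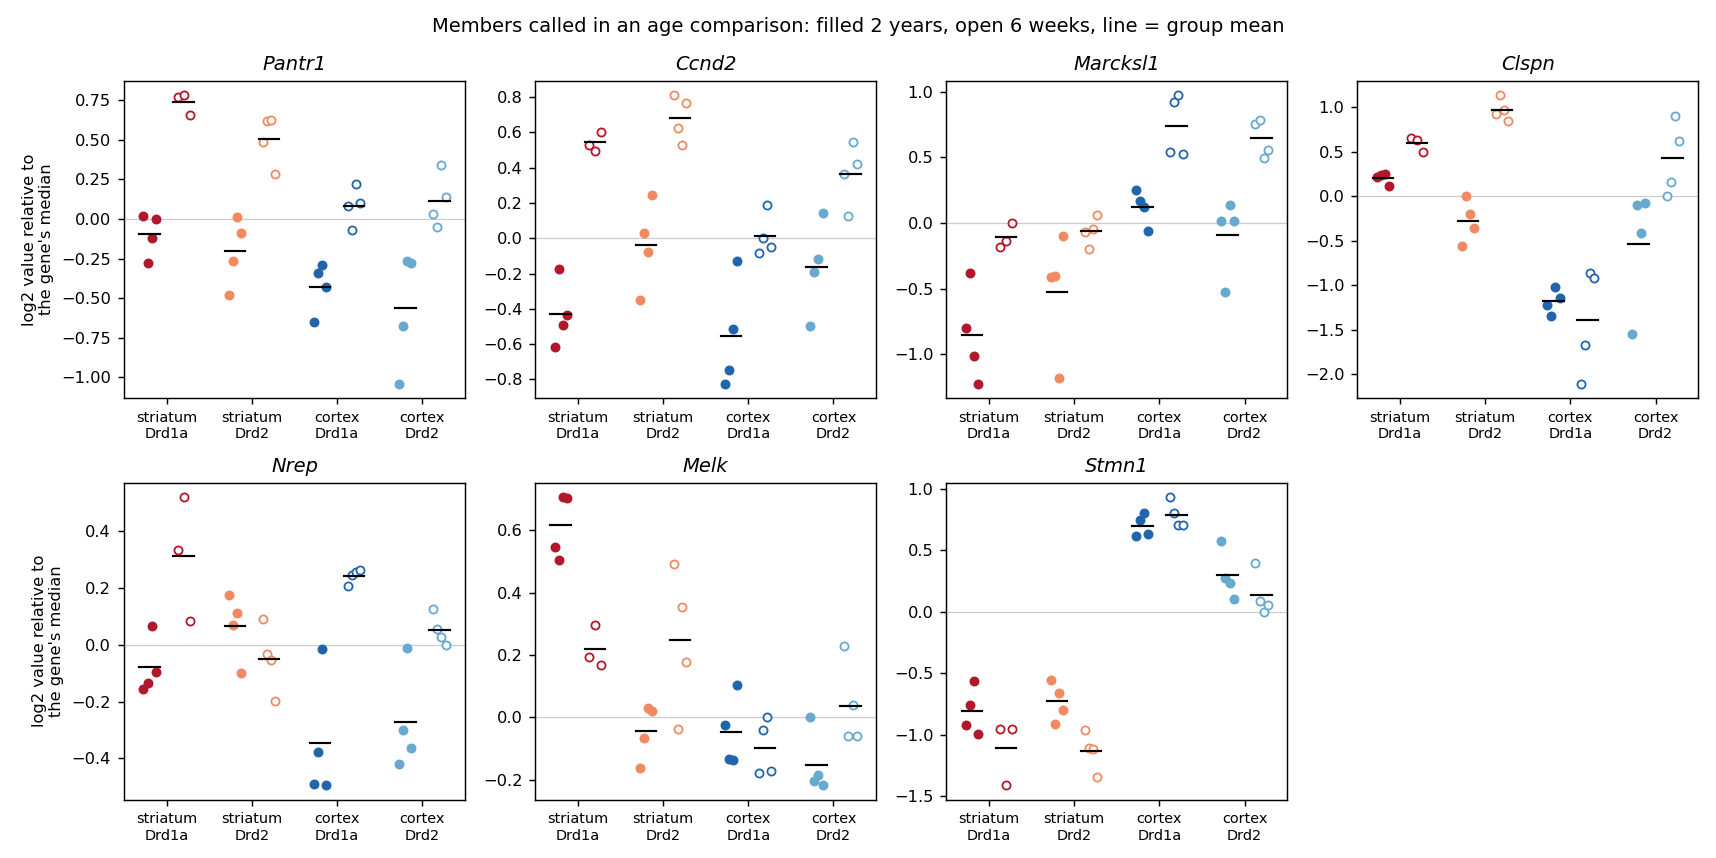
Log2 value of the 7 members called in an age comparison on each of the 31 arrays, relative to the median of the gene, by cell population; filled points are old arrays, open points young arrays and lines group means. Pantr1 lies lower on every old array than on every young array of the same cell population, while Melk is high on the old striatum Drd1a arrays.

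The other 16 immature neuron genes were called in no age comparison. The transcription factors Sox4, Sox11, Dlx1 and Dlx2 had values of -0.23 to 0.11 over the 4 comparisons, with a lowest adjusted p of 0.321. Sox4 was below 0 in all 4, at -0.20 to -0.086, and Dlx1 at -0.23 to -0.015, as were 2349 of all 16345 features. The genes of cytoskeletal and growth cone proteins, Dcx, Stmn2, Tubb2b, Gap43, Dpysl3, Dpysl5 and Crmp1, had values of -0.31 to 0.44 and a lowest adjusted p of 0.231. Among these Gap43 was the most tightly measured, with values of -0.10 to -0.022 and 95% intervals that together spanned -0.21 to 0.084. Dcx, the usual marker of new neurons, had values of -0.15 to 0.23 with intervals spanning -0.48 to 0.56, a wider range. The progenitor filament gene Vim had values above 0 in all 4 comparisons, 0.27 to 0.44, with a lowest adjusted p of 0.130, and its partner Nes, the gene of nestin, had values of -0.056 to 0.11. Igfbpl1, Draxin, an axon guidance gene, and Nnat, an imprinted gene of the developing brain, ran over -0.22 to 0.13.

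Among the cell cycle genes Ccnd2 changed most widely. It lay at -0.62, -0.17, -0.49 and -0.44 in old striatum Drd1a arrays, against 0.53, 0.50 and 0.60 in young ones. It lay at -0.35, 0.028, -0.080 and 0.25 in old striatum Drd2 arrays, against 0.81, 0.62, 0.53 and 0.76 in young ones. Old and young striatal arrays did not overlap in either cell type. The changes were -0.97 ± 0.15 (SE, adjusted p = 0.000394) in Drd1a and -0.72 ± 0.14 (SE, adjusted p = 0.00140) in Drd2 cells, 1.96-fold and 1.65-fold lower. In cortex Drd2 cells the values were -0.50, -0.19, -0.11 and 0.15 in old cortex Drd2 arrays, against 0.37, 0.12, 0.54 and 0.42 in young ones, where 1 old array lay above 1 young array. The change was -0.53 ± 0.14 (SE, adjusted p = 0.0270), 1.44-fold lower. That call was lost on leaving out any of old replicates 1 and 2 and young replicates 1, 3 and 4, with changes between -0.53 and -0.42. In cortex Drd1a cells the values were -0.82, -0.74, -0.51 and -0.13 in old cortex Drd1a arrays, against -0.083, 0, 0.19 and -0.052 in young ones, without overlap. The change of -0.57 ± 0.14 (SE, adjusted p = 0.0636) was not called. The other D-type cyclin gene, Ccnd1, was called with age nowhere and had values of -0.31 to 0.25.

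Clspn, whose product claspin passes the replication stress signal to the checkpoint kinase Chk1, fell in both Drd2 populations. In striatum Drd2 cells it lay at -0.56, 0, -0.20 and -0.36 in old striatum Drd2 arrays, against 0.92, 1.13, 0.97 and 0.85 in young ones, without overlap. The change was -1.25 ± 0.25 (SE, adjusted p = 0.00195), or 2.37-fold lower, the largest called age change among the members. In cortex Drd2 cells it lay at -1.55, -0.10, -0.42 and -0.073 in old cortex Drd2 arrays, against 0.0022, 0.16, 0.90 and 0.62 in young ones, and the highest old and lowest young arrays lay close together. The change here was -0.96 ± 0.25 (SE, adjusted p = 0.0258), or 1.94-fold lower. The cortical call was lost without old replicate 1, at -0.62 (adjusted p = 0.161), and without young replicate 3 or 4, at -0.80 and -0.89. In striatum Drd1a cells the values were 0.22, 0.23, 0.25 and 0.11 in old striatum Drd1a arrays, against 0.65, 0.63 and 0.50 in young ones, without overlap, with a change of -0.39 ± 0.27 (SE, adjusted p = 0.553) that was not called. That SE rests on the spread within all 8 groups and not on the striatum Drd1a arrays alone. The SD of Clspn was 0.060 in old and 0.081 in young striatum Drd1a arrays. It was 0.60 in young cortex Drd1a and 0.69 in old cortex Drd2 arrays. In cortex Drd1a cells the values were -1.22, -1.35, -1.02 and -1.14 in old cortex Drd1a arrays, against -2.11, -1.67, -0.87 and -0.92 in young ones, with overlap and a change of 0.21 ± 0.25 (SE, adjusted p = 0.833). The difference between the age changes of Drd1a and Drd2 cells was 0.86 ± 0.37 (SE, adjusted p = 0.743) in striatum and 1.17 ± 0.35 (SE, adjusted p = 0.258) in cortex, neither called, so the fall is not shown to be confined to Drd2 cells.

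Melk, which encodes a kinase of dividing progenitor cells, moved in opposite directions in the striatal cell types. In Drd1a cells it lay at 0.55, 0.50, 0.71 and 0.70 in old striatum Drd1a arrays, against 0.20, 0.30 and 0.17 in young ones, without overlap. The change was 0.39 ± 0.097 (SE, adjusted p = 0.0198), 1.31-fold higher. In Drd2 cells it lay at -0.16, -0.066, 0.031 and 0.022 in old striatum Drd2 arrays, against 0.49, -0.036, 0.35 and 0.18 in young ones, with overlap. The change in these was -0.29 ± 0.090 (SE, adjusted p = 0.0489), 1.22-fold lower. The difference between these age changes, Drd1a minus Drd2, was 0.69 ± 0.13 (SE, adjusted p = 0.0334), the only called member among the interactions of age with cell type in striatum, which called 0.0734% of all features. This call was lost with only the groups compared in the fit, without the 6 arrays with a median above 0.05, and without any of 7 arrays (old replicates 3 and 4 and young replicates 1 and 3 of Drd1a cells, old replicate 1 and young replicates 1 and 3 of Drd2 cells). The rise was lost without any of old replicates 3 and 4 or young replicates 1 and 3 of the Drd1a arrays, with changes between 0.36 and 0.38. The fall was kept in 1 of the 8 fits that each leave out a Drd2 array, the one without young replicate 2, with changes between -0.39 and -0.21 over the 8. It was also lost with centred arrays (adjusted p = 0.0821) and under quantile normalization (adjusted p = 0.134), and the rise without the 6 arrays with a median above 0.05 (adjusted p = 0.054). In cortex the changes were 0.049 ± 0.090 (SE, adjusted p = 0.881) in Drd1a and -0.19 ± 0.090 (SE, adjusted p = 0.294) in Drd2 cells. No member was called for the interaction in cortex (0.104% of all features called), or for the interaction of age with region in Drd1a cells (0%) or Drd2 cells (0.0184%). With limma's unadjusted p under 0.05, 3, 2 and 2 members passed in these 3 tests, beside 7.75%, 7.66% and 5.41% of all features.

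The MCM helicase genes, Pcna, Top2a, Cdk1 and Mki67 were called in no age comparison. The 6 MCM helicase subunits gave 24 age changes, 12 of them below 0, running from -0.12 to 0.45 with a lowest adjusted p of 0.112. The highest belonged to Mcm6 in cortex Drd2 cells, at 0.45 ± 0.16 (SE, adjusted p = 0.112). The 95% intervals of the 6 subunits together spanned -0.45 to 0.78. Pcna, the sliding clamp of DNA polymerase, was above 0 in all 4 comparisons, at 0.083 to 0.24, as were 1998 of all 16345 features. It had an adjusted p under the threshold in cortex Drd2 cells, 0.24 ± 0.068 (SE, adjusted p = 0.0400), but stayed under 1.2-fold. Top2a, the topoisomerase of dividing cells, had values of -0.016 to 0.023 and 95% intervals that together spanned -0.13 to 0.14, and Cdk1, the kinase that starts mitosis, had values of -0.0033 to 0.037 and intervals spanning -0.18 to 0.20. Mki67, the gene of the proliferation marker Ki-67, was below 0 in all 4 comparisons, at -0.23 to -0.13, with no call, as were 2349 of all 16345 features. These values carry no absolute level, so it cannot be told whether Top2a and Cdk1 were above background on these arrays.

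Promoter sequence was compared with these patterns for the members that have a window in the RefSeq promoter table (mouse build GRCm38.p6), 23 of the 34; Pantr1, Ccnd2 and Stmn1 are not among them. Shown are the 250 bases before the annotated start, 5′ to 3′ on the strand of the gene, of the called members Clspn, Marcksl1 and Melk and of Mcm5 and Mcm6, replication genes that were not called with age. Capitals mark TTTNGCG, the core letters of sites for E2F factors, which drive genes of S phase, and CCAAT, the core letters bound by NF-Y, each on either strand, so that they may appear as CGCNAAA and ATTGG; matches of different motifs did not overlap.
Clspn, chr4:126556730-126556979, plus strand: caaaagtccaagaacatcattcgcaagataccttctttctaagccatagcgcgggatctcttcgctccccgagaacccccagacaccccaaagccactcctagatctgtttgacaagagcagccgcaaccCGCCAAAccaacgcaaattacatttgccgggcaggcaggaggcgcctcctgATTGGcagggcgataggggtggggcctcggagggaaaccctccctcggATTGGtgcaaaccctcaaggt
Marcksl1, chr4:129513331-129513580, plus strand: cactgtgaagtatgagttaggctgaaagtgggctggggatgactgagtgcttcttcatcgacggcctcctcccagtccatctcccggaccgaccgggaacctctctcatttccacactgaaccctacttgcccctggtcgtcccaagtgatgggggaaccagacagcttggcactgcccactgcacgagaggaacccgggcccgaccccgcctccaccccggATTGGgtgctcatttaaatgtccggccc
Melk, chr4:44300667-44300916, plus strand: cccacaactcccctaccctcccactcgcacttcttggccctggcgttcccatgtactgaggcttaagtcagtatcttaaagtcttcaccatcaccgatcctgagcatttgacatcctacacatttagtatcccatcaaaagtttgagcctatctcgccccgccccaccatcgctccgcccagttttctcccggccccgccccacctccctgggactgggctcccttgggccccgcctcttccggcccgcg
Mcm5, chr8:75109259-75109508, plus strand: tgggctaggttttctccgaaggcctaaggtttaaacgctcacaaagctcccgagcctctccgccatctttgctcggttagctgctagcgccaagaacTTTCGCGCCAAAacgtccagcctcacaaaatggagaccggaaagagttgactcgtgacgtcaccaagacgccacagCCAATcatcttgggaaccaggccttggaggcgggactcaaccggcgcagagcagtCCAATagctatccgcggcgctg
Mcm6, chr1:128359706-128359955, minus strand: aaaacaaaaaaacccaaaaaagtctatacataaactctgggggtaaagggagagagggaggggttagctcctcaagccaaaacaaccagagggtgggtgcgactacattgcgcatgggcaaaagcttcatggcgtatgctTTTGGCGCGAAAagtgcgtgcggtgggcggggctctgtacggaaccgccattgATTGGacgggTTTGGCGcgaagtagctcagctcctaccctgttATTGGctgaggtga
The Clspn window holds 1 TTTNGCG and 2 CCAAT, that of Mcm5 holds 2 and 2 and that of Mcm6 holds 3 and 2. The Marcksl1 window holds 1 CCAAT and no TTTNGCG, and the Melk window holds neither. TTTNGCG was present before 4 of 11 cell cycle genes with a window (Cdk1, Clspn, Mcm5 and Mcm6) and 0 of 12 immature neuron genes, beside 3.49% of 32851 windows of this length in the table. CCAAT was present before 10 of 11 cell cycle genes and 6 of 12 immature neuron genes, beside 33.8% of windows. A gene with more than 1 window was counted once if any of them matched, while the percentages count single windows. Of the 4 genes with TTTNGCG only Clspn was called with age. A match describes letters in a window and not a bound site.

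More members, and also more of all features, were called between regions than between ages. In striatum against cortex, 10 members were called in old Drd1a cells, beside 16.1% of all features, 5 in old Drd2 cells, beside 11.3%, 13 in young Drd1a cells, beside 19%, and 6 in young Drd2 cells, beside 7.58%. Of the 20 immature neuron genes 7, 3, 7 and 6 were lower in striatum in this order, beside 8.8%, 6.31%, 9.1% and 4.57% of all features, and 0, 1, 1 and 0 were higher, beside 7.32%, 5.04%, 9.94% and 3.01%. Stmn1, Stmn2 and Tubb2b, a tubulin gene of migrating neurons, were lower in striatum in all 4 comparisons. Their striatum minus cortex differences in old Drd1a cells were -1.51 ± 0.12 (SE, adjusted p = 9.45e-11), -1.16 ± 0.13 (SE, adjusted p = 1.12e-07) and -1.03 ± 0.19 (SE, adjusted p = 0.000215). In old Drd2 cells they were -1.03 ± 0.12 (SE, adjusted p = 4.33e-07), -1.55 ± 0.13 (SE, adjusted p = 3.41e-09) and -0.98 ± 0.19 (SE, adjusted p = 0.000872). In young mice the 3 genes lay between -1.89 and -0.87. Marcksl1, the cell cycle gene Ccnd1 and Nnat were lower in striatum in 3 of 4, Dlx1 and Dcx in 2 of 4. Dlx1, a factor of inhibitory neurons, was called in the Drd1a comparisons, at -1.08 ± 0.16 (SE, adjusted p = 5.99e-06) in old and -0.995 ± 0.17 (SE, adjusted p = 4.32e-05) in young cells. Dcx was lower in striatum in young mice, with differences of -0.72 ± 0.17 (SE, adjusted p = 0.00220) in Drd1a and -0.65 ± 0.16 (SE, adjusted p = 0.00749) in Drd2 cells. In old mice its differences were -0.42 ± 0.16 (SE, adjusted p = 0.0687) and -0.30 ± 0.16 (SE, adjusted p = 0.254), not called. In the same 4 comparisons, in the order given above, 7, 6, 8 and 3 of 11 measured astrocyte markers were also lower in striatum and 1 in each was higher, with medians of -0.71, -0.61, -0.69 and -0.33. The mean of these markers ran over -0.23 to 0.0058 on old striatum Drd1a and 0.42 to 0.79 on old cortex Drd1a arrays, and over -0.18 to -0.048 on old striatum Drd2 and 0.085 to 0.71 on old cortex Drd2 arrays. In young mice it ran over -0.46 to -0.086 on striatum Drd1a and 0.26 to 0.53 on cortex Drd1a arrays, and over -0.49 to -0.30 on striatum Drd2 and -0.16 to 0.042 on cortex Drd2 arrays. Of 11 oligodendrocyte markers 3 were lower in striatum in old Drd2 cells and 2 higher in young Drd1a cells. The part of these markers in the region differences of the members was not tested.

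Fewer members were higher in striatum. Clspn was higher there in Drd1a cells of both ages, by 1.39 ± 0.25 (SE, adjusted p = 0.000120) in old and 1.98 ± 0.27 (SE, adjusted p = 1.74e-06) in young cells, as was Melk, by 0.66 ± 0.090 (SE, adjusted p = 2.38e-06) and 0.32 ± 0.097 (SE, adjusted p = 0.0178). Pantr1 and Ccnd2 were called higher in striatum in young Drd1a cells, by 0.65 ± 0.14 (SE, adjusted p = 0.00102) and 0.53 ± 0.15 (SE, adjusted p = 0.00955), and Nrep in old Drd2 cells, by 0.34 ± 0.10 (SE, adjusted p = 0.0217). In the other 3 comparisons the Pantr1 difference lay between 0.33 and 0.39, above 0 as well but not called. Dpysl3 in old Drd1a cells and Mcm6 in young Drd1a cells were lower in striatum, with differences of -0.74 ± 0.21 (SE, adjusted p = 0.00983) and -0.51 ± 0.17 (SE, adjusted p = 0.0331). No cell cycle gene was called in young Drd2 cells, although 5 of 14 had an unadjusted p under 0.05 with limma, beside 19.5% of all features. These comparisons use the same arrays as the age comparisons.

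**Figure D3:**
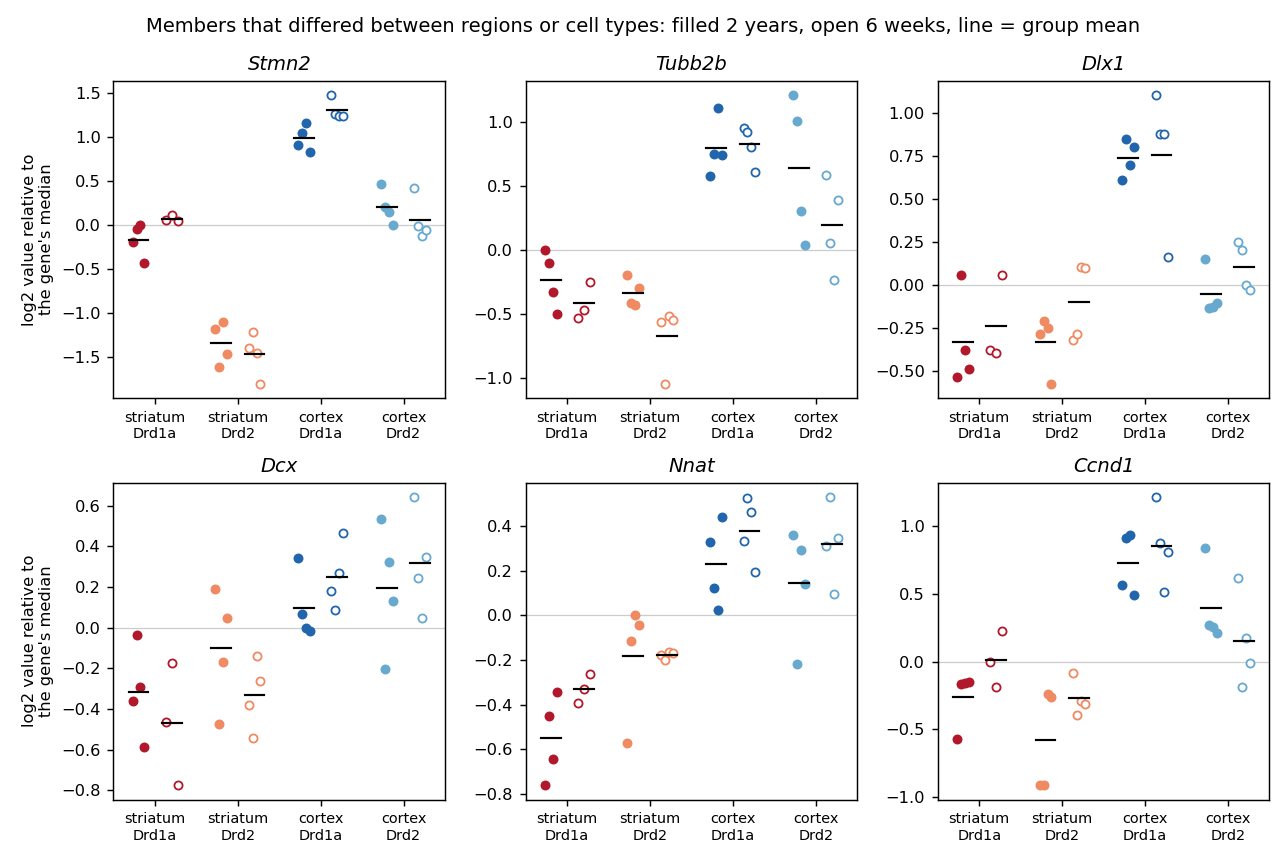
Log2 value relative to the median of the gene on each array for 6 members that differed between regions or cell types; filled points are old arrays, open points young arrays and lines group means. Stmn2 is lowest on the striatum Drd2 arrays and highest on the cortex Drd1a arrays at both ages.

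Between cell types, Drd1a against Drd2, Stmn2 stood out. Its level was -0.17 ± 0.20 in old striatum Drd1a arrays and -1.35 ± 0.24 in old striatum Drd2 arrays (SD, n = 4 each). In cortex it was 0.99 ± 0.15 in old Drd1a arrays and 0.20 ± 0.19 in old Drd2 arrays (SD, n = 4 each). The young levels were 0.071 ± 0.038 (SD, n = 3) in striatum Drd1a, -1.47 ± 0.25 in striatum Drd2, 1.30 ± 0.11 in cortex Drd1a and 0.053 ± 0.25 in cortex Drd2 arrays (SD, n = 4 each). Striatum Drd2 arrays were lowest and cortex Drd1a arrays highest at both ages, and no array of either overlapped the others of that age. Striatum Drd1a and cortex Drd2 lay between them, with overlap in young mice and, in old mice, with the highest striatum Drd1a array just under the lowest cortex Drd2 array. Drd1a exceeded Drd2 arrays in all 4 comparisons, by 1.18 ± 0.13 (SE, adjusted p = 5.62e-07) in old striatum, 0.78 ± 0.13 (SE, adjusted p = 0.000227) in old cortex, 1.54 ± 0.14 (SE, adjusted p = 1.13e-08) in young striatum and 1.25 ± 0.13 (SE, adjusted p = 6.66e-08) in young cortex.

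In all, 3 members were called between cell types in old striatum, beside 2.81% of all features, 3 in old cortex, beside 6.48%, 1 in young striatum, beside 3.05%, and 7 in young cortex, beside 12%. In old striatum the others were Melk, higher in Drd1a cells by 0.66 ± 0.090 (SE, adjusted p = 1.51e-05), and Sox11, with a difference of -0.40 ± 0.085 (SE, adjusted p = 0.00503). In cortex Stmn1 and Dlx1 were higher in Drd1a cells at both ages, Stmn1 by 0.40 ± 0.12 (SE, adjusted p = 0.0311) in old and 0.65 ± 0.12 (SE, adjusted p = 0.000159) in young mice, Dlx1 by 0.80 ± 0.16 (SE, adjusted p = 0.00135) and 0.65 ± 0.16 (SE, adjusted p = 0.00392). Also called in young cortex were Tubb2b at 0.63 ± 0.19 (SE, adjusted p = 0.0271) and Ccnd1 at 0.71 ± 0.18 (SE, adjusted p = 0.00723), higher in Drd1a cells, and Clspn at -1.81 ± 0.25 (SE, adjusted p = 4.57e-06) and Mcm4 at -0.40 ± 0.10 (SE, adjusted p = 0.00711), lower in Drd1a cells. For Clspn the mean was -1.39 ± 0.60 in young cortex Drd1a arrays and 0.42 ± 0.41 in young cortex Drd2 arrays (SD, n = 4 each), and -1.18 ± 0.14 in old cortex Drd1a arrays and -0.54 ± 0.69 in old cortex Drd2 arrays (SD, n = 4 each). In the cortical comparisons markers of glia differed too. Of 11 measured oligodendrocyte markers 7 in old and 4 in young cortex were lower in Drd1a cells, with medians of -0.60 and -0.25. Their mean ran over -0.17 to 0.028 on old Drd1a and 0.072 to 0.88 on old Drd2 arrays of cortex, and over -0.40 to -0.36 on young Drd1a and -0.049 to 0.065 on young Drd2 arrays. Of 11 measured astrocyte markers 2 in old and 6 in young cortex were higher and 0 and 1 lower in Drd1a cells, with medians of 0.22 and 0.68. None of either list was called between cell types in striatum, where 5 and 0 of the oligodendrocyte and 1 and 0 of the astrocyte markers had an unadjusted p under 0.05 with limma in old and young mice. All 11 oligodendrocyte markers were still lower in Drd1a cells of old striatum, with a median of -0.37 against -0.016 over all features. Their mean ran over -0.22 to -0.013 on old striatum Drd1a and 0.19 to 0.40 on old striatum Drd2 arrays. In young striatum their median was 0.0085. The part of these glial markers in the differences of the members was not tested.

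**Figure D4:**
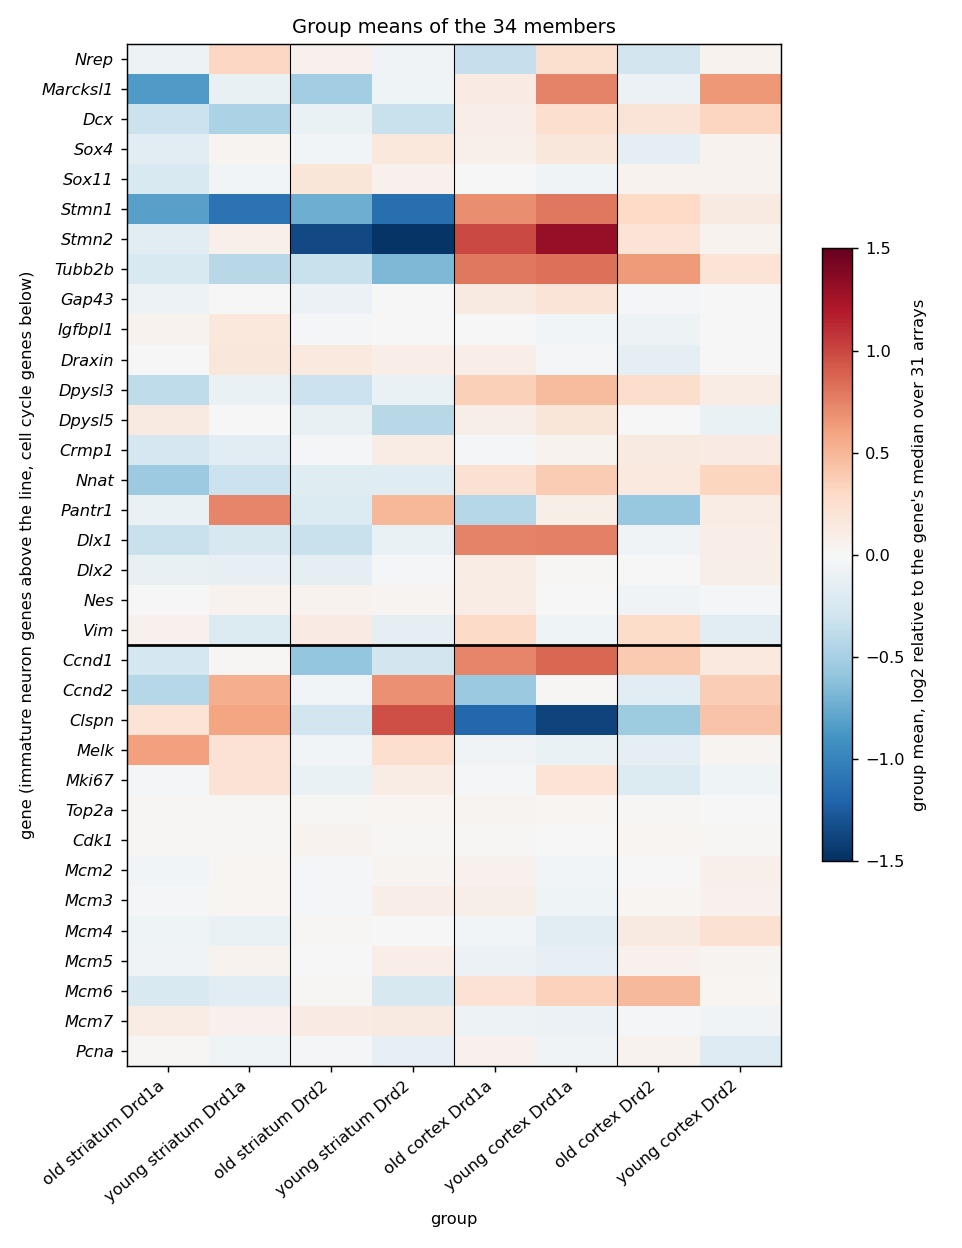
Mean log2 value of each of the 34 members in the 8 groups, relative to the median of each gene over the 31 arrays; red is above and blue below that median, and each row has its own zero. Stmn1, Stmn2, Tubb2b and Ccnd1 are lower in each striatal column than in the cortical column of the same age and cell type, while Top2a and Cdk1 stay near 0 throughout.

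Related genes outside the member lists were called in both directions. Of 51 measured further genes of immature neurons, 2 rose and 2 fell in striatum Drd1a cells, 7 rose and 1 fell in striatum Drd2 cells, none was called in cortex Drd1a cells, where 9 had an unadjusted p under 0.05 with limma (9.23% of all features), and 4 rose and 1 fell in cortex Drd2 cells. All features were called at 3.43%, 5.7%, 0.453% and 3.63% in these comparisons. Their median age changes were -0.055, 0.041, 0.023 and 0.024 in that order. Among those with the largest called changes, Fabp7, a lipid carrier of radial glia and astrocytes, fell in striatum Drd1a cells, with a change of -1.05 ± 0.26 (SE, adjusted p = 0.0184). In the same cells the adhesion gene Ncam1 rose by 0.48 ± 0.12 (SE, adjusted p = 0.0237) and Dpysl2, a gene of the Dpysl3 family, by 0.44 ± 0.12 (SE, adjusted p = 0.0340). In striatum Drd2 cells the transcription factor gene Ebf1 rose by 0.92 ± 0.17 (SE, adjusted p = 0.00113), the polysialyltransferase gene St8sia4 by 0.88 ± 0.20 (SE, adjusted p = 0.00536) and the adhesion gene Chl1 by 0.76 ± 0.15 (SE, adjusted p = 0.00154). In cortex Drd2 cells Chl1 rose by 0.77 ± 0.15 (SE, adjusted p = 0.00320), the adhesion gene L1cam by 0.66 ± 0.11 (SE, adjusted p = 0.00139), Ncam1 by 0.58 ± 0.11 (SE, adjusted p = 0.00370) and the tubulin gene Tubb2a by 0.49 ± 0.14 (SE, adjusted p = 0.0467).

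Of 81 measured further cell cycle genes none was called in striatum Drd1a cells, where, beside 15.6% of all features, 14 had an unadjusted p under 0.05 with limma. In striatum Drd2 cells 3 rose and 1 fell, in cortex Drd1a cells 1 rose, and in cortex Drd2 cells 4 rose and 1 fell, beside 5.7%, 0.453% and 3.63% of all features. The median changes were -0.037, 0.017, 0.037 and -0.010 in the order of the 4 comparisons. Anln, the gene of the cytokinesis protein anillin, which myelinating oligodendrocytes also make, rose in 3 populations, by 0.49 ± 0.13 (SE, adjusted p = 0.0157) in striatum Drd2, 0.63 ± 0.13 (SE, adjusted p = 0.0172) in cortex Drd1a and 0.91 ± 0.13 (SE, adjusted p = 0.000218) in cortex Drd2 cells. Prim1, the gene of a DNA primase subunit, rose by 0.71 ± 0.21 (SE, adjusted p = 0.0401) in striatum Drd2 and 0.88 ± 0.21 (SE, adjusted p = 0.0175) in cortex Drd2 cells. Cdkn1b, the gene of the cell cycle inhibitor p27, fell in striatum Drd2 cells, with a change of -0.50 ± 0.14 (SE, adjusted p = 0.0267), and Ccne1, the gene of cyclin E1, rose there by 0.38 ± 0.097 (SE, adjusted p = 0.0154). In cortex Drd2 cells Rrm1, which encodes a subunit of ribonucleotide reductase, rose by 0.55 ± 0.13 (SE, adjusted p = 0.0157), and Cdk4, the gene of a kinase that D-type cyclins activate, fell with a change of -0.32 ± 0.087 (SE, adjusted p = 0.0354).

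Markers of other cell types moved in the same comparisons. In Drd2 samples, where Clspn fell, 5 of 7 measured Drd1a neuron markers rose with age in striatum and 3 of 7 in cortex. Their mean ran over -0.33 to -0.12 on old and -1.497 to -1.24 on young striatum Drd2 arrays, and over -0.59 to -0.34 on old and -1.22 to -1.05 on young cortex Drd2 arrays. Among these markers Drd1 itself rose by 2.41 ± 0.18 (SE, adjusted p = 1.75e-09) in striatum Drd2 and 1.73 ± 0.18 (SE, adjusted p = 1.80e-06) in cortex Drd2 cells. Of 11 measured astrocyte markers 4 rose in striatum Drd2 and 3 in cortex Drd2 cells, with means of -0.18 to -0.048 on old and -0.49 to -0.30 on young striatum Drd2 arrays and of 0.085 to 0.71 on old and -0.16 to 0.042 on young cortex Drd2 arrays. Of 11 measured oligodendrocyte markers 1 rose in striatum Drd2, 2 in cortex Drd1a and 4 in cortex Drd2 cells, with means of 0.072 to 0.88 on old and -0.049 to 0.065 on young cortex Drd2 arrays. Among 7 oligodendrocyte precursor markers Vcan fell in striatum Drd2 cells, with a change of -0.36 ± 0.11 (SE, adjusted p = 0.0362), and none of 11 microglial, 9 vascular or 4 ependymal and ventricular zone markers was called with age (in any 1 comparison at most 4, 1 and 0 of them had an unadjusted p under 0.05 with limma). All 11 microglial markers were above 0 in cortex Drd1a cells, with a median of 0.15 beside 0.039 over all features. In striatum Drd1a, striatum Drd2 and cortex Drd2 cells 5, 7 and 7 of the 11 were above 0. In striatum Drd1a cells 1 of 3 measured Drd2 neuron markers, Penk, rose by 0.38 ± 0.092 (SE, adjusted p = 0.0176). The values are relative to each gene's own median and do not show whether a marker was near background. The part of these shifts in the age changes of the members was not tested.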

How the data were processed

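Ribosome-bound RNA of cells expressing Drd1a or Drd2 was measured on 31 mouse exon arrays, in 8 groups of age, region and cell type. The deposited numbers are log2 values, made by the authors with RMA (robust multi-array averaging) on build mm8, per the submitters' processing notes; each feature was centred on its median across arrays, which is 0 within 1e-06 for 16341 of the 16345. A few deposited columns have the unit other, since 3 of their values lack a decimal point; those values and 1 blank were treated as missing, and none was a member's. Signal over background was not analysed here. Gene names came from the platform's annotation. The members and gene lists were chosen with earlier results of these data known.

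Differences were tested, two-sided, by limma (version 3.58.1, R 4.3.3) in 1 fit of the 31 arrays with a mean for each group, 23 residual and 4.68 prior degrees of freedom. A feature was called at a Benjamini-Hochberg adjusted p under 0.05 over all 16345 features and a fold of 1.2 or more, which are the submitters' stated thresholds; the test they used is not given in the sources. Full values are given for members called with age, counts and ranges for the others, and up to 4 called genes with the largest change for each age comparison of the lists of further immature neuron and cell cycle genes; 1 such gene is not reported here. Interactions of age with cell type and with region were fitted in the same model. The model was tested on simulated data. The alternatives tried were centring each array on its median, quantile normalization, only the groups compared, a replicate block, array weights, no fold threshold, leaving out the 6 arrays with a median above 0.05, and leaving out each array in turn. Promoter windows came from a RefSeq table and were searched for both motifs on both strands. Same-numbered arrays of striatum and cortex did not deviate together. Correlations of their deviations from group means ran from -0.20 to 0.22, against -0.41 to 0.50 for unlike numbers. Over regions, ages and cell types those of same-numbered arrays ran from -0.36 to 0.35. Replicate numbers were therefore not taken as pairs. The labels do not state whether striatum and cortex arrays share mice, so such a pairing is not excluded.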

Additional observations from a re-analysis of the deposited data

Results flagged for a closer look

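The age change of Melk differed between the striatal cell types. Drd1a minus Drd2 gave 0.685 on the log2 scale (limma, adjusted p = 0.0334), with a change of 0.39 in Drd1a cells and -0.29 in Drd2 cells. The call was lost with only the groups compared in the fit, without the 6 arrays with a median above 0.05, and without any of 7 of the 15 striatal arrays. In each of 2 groups of 4 arrays, 1 array lay far from the rest by Dixon's criterion, among 56 groups of the 7 members called with age and of Stmn2 that were tested, and chance alone marks about 1 group in 20. Melk in old cortex Drd2 cells was at 0 in replicate 1 and at -0.22, -0.20 and -0.19 in the other replicates. Stmn2 in young cortex Drd1a cells was at 1.47 in replicate 1 and at 1.23, 1.24 and 1.26 in the other replicates.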

How the results depend on the processing

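No result reversed its direction under any alternative run, and dropping the fold threshold moved no count of called members by over 1.5 times. For the other settings, apart from leaving out each array, the counts listed next are those that moved by over 1.5 times or to or from 0. Smaller shifts are left out of this list. Fitting only the groups compared gave fewer immature neuron calls with age in striatum Drd1a (1, against 3 with all arrays), striatum Drd2 (1, against 2), cortex Drd1a (0, against 1) and cortex Drd2 cells (0, against 2), fewer cell cycle calls in striatum Drd1a (1, against 2) and cortex Drd2 cells (0, against 2), and 0 members, against 1, for the interaction of age and cell type in striatum; that fit has fewer arrays for the residual spread. Without the 6 arrays with a median above 0.05, cell cycle calls were 1 in striatum Drd1a (against 2), 1 in cortex Drd1a (against 0) and 0 in cortex Drd2 cells (against 2), the striatal interaction had 0 members (against 1), and Drd1a against Drd2 cells gave 5 in old striatum and 5 in old cortex (against 3 each). Quantile normalization gave 1 immature neuron call in striatum Drd2 cells, and centring gave 1 cell cycle call in cortex Drd1a cells. Array weights gave 1 immature neuron call in striatum Drd2 and 3 in cortex Drd1a cells, 1 cell cycle call each in cortex Drd1a and cortex Drd2 cells, 17 members (against 10) for striatum against cortex in old Drd1a cells, and 6, 5 and 2 for Drd1a against Drd2 cells in old striatum, old cortex and young striatum (against 3, 3 and 1). With the replicate block 8 members (against 5) were called for striatum against cortex in old Drd2 cells, and all 15 age calls of members were kept. The cause of these shifts was not tested. Leaving out each array in turn gave, with age, 1 to 2 immature neuron and 1 to 2 cell cycle calls in striatum Drd1a, 1 to 3 and 2 to 3 in striatum Drd2, 1 to 1 and 0 to 1 in cortex Drd1a, and 1 to 4 and 0 to 3 in cortex Drd2 cells. It gave 0 to 1 members for the striatal interaction and 0 to 0 for the other interactions, 10 to 16, 4 to 7, 11 to 13 and 6 to 7 for striatum against cortex in old Drd1a, old Drd2, young Drd1a and young Drd2 cells, and 3 to 4, 2 to 5, 1 to 2 and 6 to 7 for Drd1a against Drd2 cells in old striatum, old cortex, young striatum and young cortex. Another background correction, a filter on dim features and a slide or scan block were not run, since the values keep no absolute level and no scanner file or batch label was used here.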
